A study of Saccharomyces cerevisiae with 24 samples.

Results

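Ty1 is the most abundant retrotransposon of budding yeast, and 10 of the 6205 open reading frames (ORFs) measured here belong to 5 Ty1 elements on chromosomes X and XIII. They are YJR026W, YJR027W, YJR028W and YJR029W on chromosome X and YML039W, YML040W, YMR045C, YMR046C, YMR050C and YMR051C on chromosome XIII. They were chosen by their log2 ratios in these data: YML040W, YMR051C and YJR028W are among the largest falls in the strain labelled as dot4 null. The values of that strain are therefore given as a description, without a test, and tests are given for the other strains only. All 10 ORFs had values in every set of arrays.

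A Ty1 element is bounded by long terminal repeats and is copied through an RNA made by RNA polymerase II. The same RNA codes for Gag, the protein that builds the virus-like particle, and, through a programmed shift of the reading frame, for the longer Gag-Pol, which carries the protease, integrase and reverse transcriptase. Ty1 is known for insertion upstream of genes transcribed by RNA polymerase III and for expression that depends on chromatin regulators. DOT4, the gene deleted or altered in these strains, is named UBP10 in the reference annotation and encodes an enzyme that removes ubiquitin from histone H2B and acts in telomeric silencing.

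In each of the 5 pairs, the short Gag ORF lies inside the long Gag-Pol ORF and shares its start in the R64 annotation of RefSeq. The pairs are YJR026W with YJR027W, YJR028W with YJR029W, YML040W with YML039W, YMR046C with YMR045C, and YMR051C with YMR050C. Ty1 copies are nearly identical in sequence. The probe of an ORF can therefore collect RNA from other copies, from both ORFs of a pair and in part from the related Ty2. The array type and its probes are not stated. The 10 values thus cannot be read as 10 separate transcripts, and no value can be assigned to 1 element. Sequences of these ORFs were not used here.

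The study compared total RNA from 4 yeast strains with total RNA from 1 strain on arrays with 2 dyes. Cells grew in the rich medium YEPD, which contains glucose. The compared strains are UCC6435, labelled as a dot4 null strain, UCC6406 with dot4-1-6Myc, UCC6407 with dot4-5-6Myc, and UCC6432 with untagged DOT4. All were set against UCC6408, which carries DOT4-6Myc. Each strain has 3 numbered sets of 2 arrays with the dyes exchanged, 24 arrays in all. The protein changes of dot4-1 and dot4-5, further strain markers and whether sets are separate cultures are not stated. The p-values therefore measure a spread between sets that may be technical.

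Values below are log2 ratios of a compared strain over DOT4-6Myc, as the mean of the 2 arrays of a set. Their direction is likely and not certain: as the labels order the strains, the null strain would hold more UBP10 RNA than DOT4-6Myc on all its arrays, so every array was turned against that order. The turn was applied to all 4 strains because their dye effects across genes correlated at 0.807 to 0.868. That correlation concerns the order of the dye channels. It is the same whether or not strain names were swapped, so it cannot settle the direction of each strain. In the labels' order every sign below is exchanged. If names were swapped on null arrays alone, the null strain's values would stand as printed. The signs printed for dot4-1, dot4-5 and untagged DOT4 would then be exchanged. In the turned direction UBP10 was at -4.69 ± 0.37 in the null strain, -0.62 ± 0.054 in dot4-1, -0.24 ± 0.025 in dot4-5 and -0.17 ± 0.081 in untagged DOT4 (SD, n = 3 sets each). UBP10 fell in dot4-1 (adjusted p = 7.61e-05, limma), and its values in dot4-5 and untagged DOT4 had adjusted p-values of 0.817 and 0.202. In RNA of a whole culture, fewer cells with a transcript and less of it per cell cannot be told apart.

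In the null strain, the strain that chose the ORFs, the 5 Gag ORFs lay close together and well below 0. YML040W was at -1.48, -1.56 and -1.66 in sets 1, 2 and 3, a mean of -1.57 ± 0.087. YMR051C was at -1.52, -1.60 and -1.58, a mean of -1.57 ± 0.040. YJR028W was at -1.53, -1.61 and -1.56, a mean of -1.56 ± 0.042. These 3 ORFs ranked 9, 10 and 11 among the falls of that strain, and the next Gag ORFs, YMR046C and YJR026W, ranked 15 and 16. YMR046C was at -1.46, -1.54 and -1.61, and YJR026W was at -1.37, -1.55 and -1.63. The 5 Gag ORFs were thus 2.86-fold to 2.96-fold lower in the null strain than in DOT4-6Myc.

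The 5 Gag-Pol ORFs were also below 0 in every set of the null strain, but by less. YJR029W, the lowest, was at -1.13, -0.82 and -0.85, a mean of -0.93 ± 0.17. YJR027W, the highest, was at -1.03, -0.74 and -0.68, a mean of -0.81 ± 0.19. YML039W, YMR045C and YMR050C lay between them at -0.84 ± 0.17, -0.88 ± 0.18 and -0.89 ± 0.15. No Gag-Pol value of a set reached down to any Gag value, and the Gag-Pol ORFs ranked from 64 to 90 among the falls. Set 1 held the lowest value of each Gag-Pol ORF and the highest value of each Gag ORF. Of the 10 ORFs, 5 were at least 2-fold lower in the null strain, where 0.807% of all genes were. The ORFs were picked from these values, so the excess follows from the choice and is no result.

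**Figure D1:**
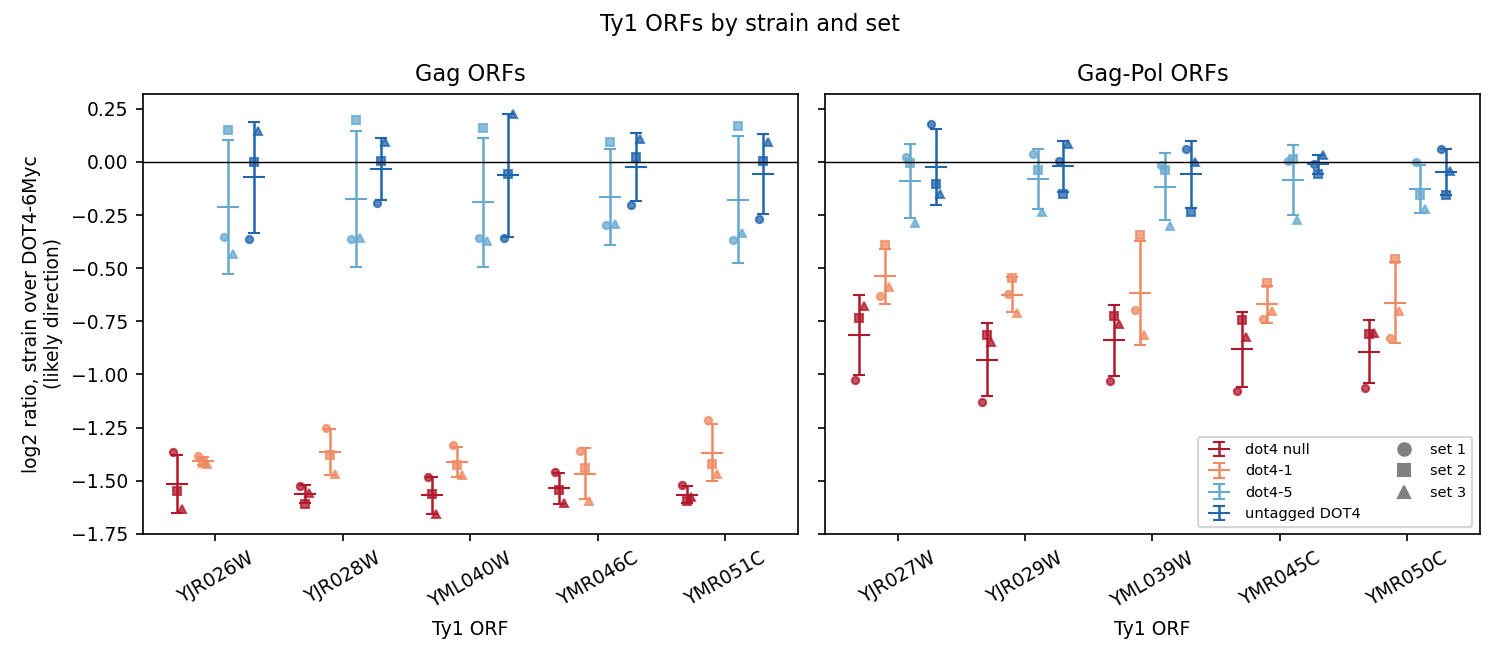
Log2 ratio of each Ty1 ORF (y axis, strain over DOT4-6Myc in the likely direction) in 4 strains, with Gag ORFs on the left and Gag-Pol ORFs on the right; small symbols are the 3 sets, and bars are the mean and SD. Gag ORFs lie below -1.2 in every set of the null strain and of dot4-1, Gag-Pol ORFs lie between, and both kinds lie within 0.44 of 0 in dot4-5 and untagged DOT4.

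In dot4-1, a strain whose values did not choose the ORFs, all 10 fell, and the Gag ORFs fell further than the Gag-Pol ORFs. YMR046C, a Gag ORF, was at -1.36, -1.44 and -1.60 in sets 1, 2 and 3, a mean of -1.47 ± 0.12 (SD, n = 3 sets, 2.76-fold lower, adjusted p = 2.42e-08, limma). YJR026W, the Gag ORF with the smallest spread, was at -1.38, -1.42 and -1.42, a mean of -1.41 ± 0.020. YJR028W, the Gag ORF that fell least, was at -1.25, -1.38 and -1.47, a mean of -1.36 ± 0.11. Every set of every Gag ORF in dot4-1 was below -1.2. The sets of dot4-1 overlapped with those of the null strain for YJR026W and YMR046C, and all sets of the null strain were lower for YJR028W, YML040W and YMR051C. YML040W averaged -1.41 ± 0.072 and YMR051C averaged -1.37 ± 0.14, and the 5 Gag ORFs together were 2.58-fold to 2.76-fold lower.

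Among the Gag-Pol ORFs in dot4-1, YMR045C was at -0.74, -0.57 and -0.70, a mean of -0.67 ± 0.088 (SD, n = 3 sets, 1.59-fold lower, adjusted p = 2.58e-06, limma). YJR027W, the Gag-Pol ORF that fell least, was at -0.63, -0.39 and -0.59, a mean of -0.54 ± 0.13 (1.45-fold lower, adjusted p = 9.13e-05, limma). YJR029W, YML039W and YMR050C averaged -0.63 ± 0.083, -0.62 ± 0.25 and -0.66 ± 0.19. Set 2 was the one nearest to 0 for all 5 Gag-Pol ORFs.

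The count of 10 of 10 lower in dot4-1 stands against a large background, since 73.4% of the 6195 genes tested passed the threshold there, 37.5% lower and 35.9% higher. By size, 5 of 10, all Gag ORFs, were at least 2-fold lower in dot4-1, where 1.34% of all genes were. This excess is not free of the choice of the ORFs in the null strain. Across genes, arrays of dot4-1 and of the null strain correlated at 0.56 to 0.834 in Cy3 and 0.712 to 0.903 in Cy5, dye effects included. The median of the 10 ORFs was -1.02, and that of all genes tested was -0.01. The null strain and dot4-1 were both set against DOT4-6Myc, and the deviations of their same-numbered sets from the strain means correlated at 0.317 to 0.672 across genes, so the values of these strains are not independent of each other. The Ty1 values depended on the scaling of arrays: with all arrays scaled to a common spread, the median of the 10 ORFs was -0.58 in dot4-1, and all 10 remained past the threshold.

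In dot4-5, none of the 10 ORFs passed the threshold, where 1.03% of all genes did. YJR026W, the lowest, was at -0.36, 0.15 and -0.43 in sets 1, 2 and 3, a mean of -0.21 ± 0.32 (SD, n = 3 sets, adjusted p = 1, limma). YMR046C was at -0.30, 0.10 and -0.29, a mean of -0.16 ± 0.22. All 5 Gag ORFs were above 0 in set 2 and below 0 in sets 1 and 3, so the spread between sets exceeded the mean. The Gag-Pol ORFs averaged from -0.13 for YMR050C to -0.08 for YJR029W and were lowest in set 3. The unadjusted p-values of the 10 ORFs ran from 0.0559 to 0.302, and none was under 0.05, which 269 of all genes were. The 95% intervals of the 5 Gag ORFs lay between -0.44 and 0.04, and those of the 5 Gag-Pol ORFs lay between -0.31 and 0.09. Without set 2 of dot4-5, YJR028W alone passed the threshold, at -0.36 with an adjusted p of 0.0281 (limma).

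In untagged DOT4, none of the 10 ORFs passed the threshold either, where 25.8% of all genes did. YML040W was at -0.36, -0.06 and 0.22 in sets 1, 2 and 3, a mean of -0.06 ± 0.29 (SD, n = 3 sets, adjusted p = 0.726, limma). YMR045C was at -0.01, -0.06 and 0.03, a mean of -0.01 ± 0.044. The Gag ORFs were lowest in set 1 and highest in set 3, and the 3 sets of each Gag ORF spanned 0. The unadjusted p-values ran from 0.499 to 0.864. The 95% intervals of the Gag ORFs lay between -0.30 and 0.17 and those of the Gag-Pol ORFs between -0.26 and 0.16. A change of the size seen in dot4-1 lies outside these intervals for every one of the 10 ORFs in both dot4-5 and untagged DOT4.

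The differences between the compared strains were tested through the shared DOT4-6Myc strain. All 10 ORFs were lower in dot4-1 than in dot4-5, against 31.4% of all genes, and all 10 were lower in dot4-1 than in untagged DOT4, against 31.1%. YMR046C differed most, by -1.30 between dot4-1 and dot4-5 (adjusted p = 3.32e-06, limma) and by -1.44 between dot4-1 and untagged DOT4 (adjusted p = 6.66e-07, limma). YJR027W differed least, by -0.45 (adjusted p = 0.0059) and -0.51 (adjusted p = 0.00235, limma). The sets of dot4-1 lay below all sets of dot4-5 and of untagged DOT4 for each of the 10 ORFs. These 2 counts are not equally firm. With arrays scaled to a common spread, all 10 ORFs stayed lower in dot4-1 than in dot4-5, but YMR046C alone stayed past the threshold. The median difference of the 10 ORFs was then -0.27 in place of -0.89. Under the same scaling all 10 stayed lower in dot4-1 than in untagged DOT4, and 8 of the 10 stayed past the threshold. The median difference was -0.56 in place of -0.98.

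Between dot4-5 and untagged DOT4 none of the 10 ORFs differed past the threshold, where 13.1% of all genes did. The differences ran from -0.14 for YJR028W to -0.06 for YML039W, with unadjusted p-values of 0.231 to 0.664. Their 95% intervals lay between -0.46 and 0.20 for the Gag ORFs and between -0.34 and 0.22 for the Gag-Pol ORFs. In the order of the strains, the null strain and dot4-1 were neighbours, and their difference was not tested. It ran from -0.07 for YMR046C to -0.31 for YJR029W, with the null strain lower for all 10 ORFs.

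The gap between the Gag and the Gag-Pol ORF of an element was seen in the null strain and in dot4-1. Gaps with ± are the mean and SD of 3 set means, each over the 5 pairs. In the null strain the Gag ORF was below its Gag-Pol partner in 15 of 15 pairs and sets, by -0.68 ± 0.24 (log2). In dot4-1 it was lower in 15 of 15, by -0.78 ± 0.18, with a range from -1.09 to -0.38. In dot4-5 it was lower in 10 of 15, at -0.08 ± 0.28, and in untagged DOT4 in 5 of 15, at -0.02 ± 0.28. The 5 pairs of a set moved together in each strain, as overlapping ORFs with shared sequence can, so the 15 values are not 15 replicates. Over 3 sets, an exact sign-flip test cannot give a two-sided p under 0.25, and none was run. The mean gap of the 5 pairs in sets 1, 2 and 3 was -0.41, -0.81 and -0.82 in the null strain and -0.61, -0.96 and -0.78 in dot4-1. It was -0.36, 0.20 and -0.09 in dot4-5 and -0.34, 0.14 and 0.15 in untagged DOT4, so set 1 of these 2 strains had a gap near that of set 1 of the null strain.

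**Figure D2:**
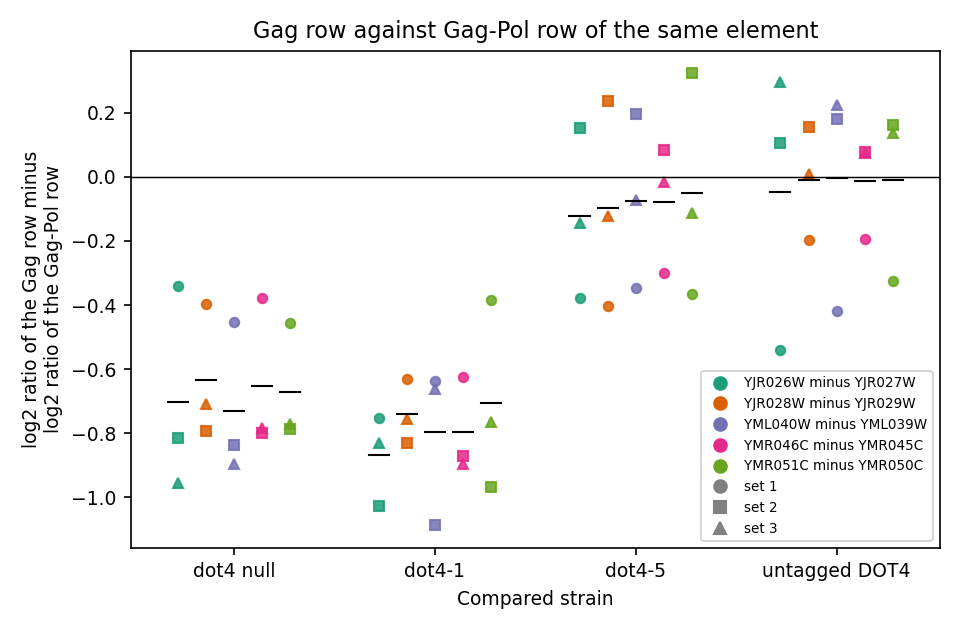
Log2 ratio of each Gag ORF minus that of the Gag-Pol ORF of the same element (y axis) in 4 strains; symbols are sets, colours are elements, and short lines are means over 3 sets. All 15 points lie below 0 in the null strain and in dot4-1, and points lie on both sides of 0 in dot4-5 and untagged DOT4.

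The ORFs of one kind could hardly be told apart from each other. Within a set mean of the null strain or dot4-1, the 5 Gag ORFs spanned 0.06 to 0.18, and on single arrays they spanned 0.06 to 0.49 with a median of 0.23. The 5 Gag-Pol ORFs spanned 0.13 to 0.51 on single arrays, with a median of 0.29. The 2 elements of chromosome X and the 3 of chromosome XIII gave overlapping values in every strain. How much of this likeness comes from shared probe signal was not tested.

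The dye orientation shifted the Ty1 values in all 4 strains, and its medians lay further apart for the Gag-Pol than for the Gag ORFs in each. On dot4-1 arrays, the Gag ORFs had a median of -1.81 with dot4-1 in Cy5 and -1.01 with dot4-1 in Cy3, below 0 in all 15 values of each orientation. The Gag-Pol ORFs of dot4-1 had a median of -1.23 in Cy5 and -0.09 in Cy3, where 9 of 15 values were below 0. On null arrays the medians were -2.02 in Cy5 and -1.08 in Cy3 for Gag, and -1.44 in Cy5 and -0.26 in Cy3 for Gag-Pol. The mean of both orientations cancels a dye effect of constant size. With Cy3 arrays alone, the 5 Gag ORFs stayed lower in dot4-1, from -1.19 for YMR046C to -0.93 for YML040W, and the 5 Gag-Pol ORFs lost the call, from -0.11 for YJR027W to 0.02 for YMR045C.

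On the arrays of dot4-5 and untagged DOT4, all values of the 10 ORFs were below 0 with the compared strain in Cy5. In Cy3 all were above 0 except 5 of the 15 Gag values of dot4-5, all in set 1. The Gag ORFs of dot4-5 had a median of -0.38 in Cy5 and 0.33 in Cy3, and the Gag-Pol ORFs had -0.66 and 0.48. In untagged DOT4 the Gag ORFs had a median of -0.36 in Cy5 and 0.26 in Cy3, and the Gag-Pol ORFs had -0.59 and 0.57. The dye component, the part of a value that is the same in both orientations as deposited, was 0.21 to 0.79 for the 10 ORFs over the 4 strains. Unlike the other values it was taken before the arrays were centred. It therefore also holds a part from the array medians, which ran from -0.092 to 0.276. In the difference of dot4-1 and dot4-5 the dye component is shared. With Cy3 arrays alone all 10 ORFs were lower in dot4-1 past the threshold, with a median of -0.84. With Cy5 arrays alone all 10 were lower and 9 passed the threshold, with a median of -0.92.

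**Figure D3:**
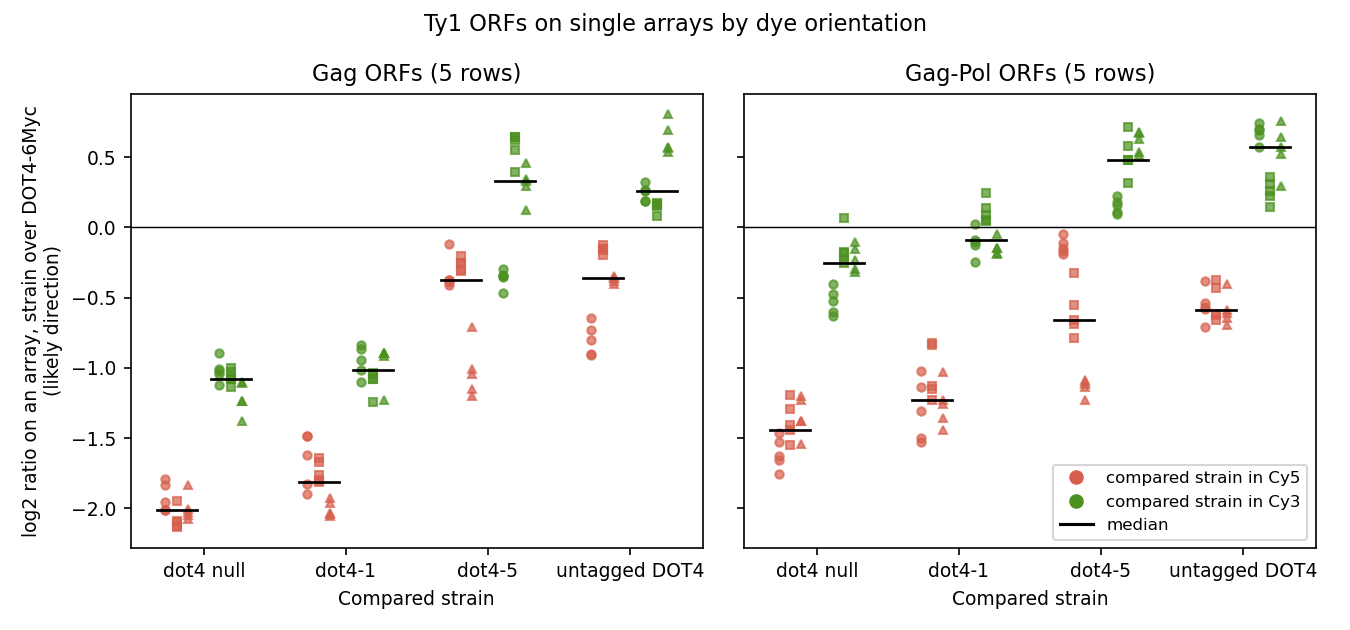
Log2 ratio on single arrays (y axis, strain over DOT4-6Myc in the likely direction) of the 5 Gag ORFs on the left and the 5 Gag-Pol ORFs on the right, by strain and by the dye of the compared strain; symbols are sets and black lines are medians. The Cy3 median lies above the Cy5 median in each strain, the Gag values of dot4-5 overlap between orientations, and the Gag ORFs of the null strain and dot4-1 are below 0 in both.

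Other Ty1 ORFs in the table, from other elements and including YML045W on chromosome XIII, moved in the same direction as the 10. Of the 51 listed, 11 were measured and all 11 fell in dot4-1, with a median of -0.67, and 0 of 11 passed the threshold in dot4-5 or in untagged DOT4. YBL005W-A, a Gag ORF and the lowest, averaged -1.43 ± 0.16 in dot4-1 (SD, n = 3 sets, adjusted p = 3.64e-08, limma). YAR009C, the highest, averaged -0.54 ± 0.16 (adjusted p = 5.05e-05, limma). The 3 Gag ORFs among them lay at -1.43 to -1.39 in dot4-1, inside the range of the 5 Gag ORFs above, and the 8 others lay at -0.74 to -0.54. The 11 ran from -1.55 to -0.78 in the null strain. These ORFs share sequence with the 10, so they are no separate evidence.

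Ty2, which is related to Ty1 in sequence, had 5 of 21 listed ORFs in the table, and all 5 fell in dot4-1. YCL020W, the lowest, averaged -0.85 ± 0.064 (SD, n = 3 sets, adjusted p = 1.1e-06, limma), and YFL002W-A, the highest, averaged -0.53 ± 0.14 (adjusted p = 4.69e-05, limma). The 2 Gag ORFs of Ty2 were at -0.85 and -0.79 and its 3 Gag-Pol ORFs at -0.55 to -0.53. The 5 lay between -0.95 and -0.78 in the null strain, and none of the 5 passed the threshold in dot4-5 or untagged DOT4. With Cy3 arrays alone, 3 of the 11 Ty1 ORFs and 2 of the 5 Ty2 ORFs, all of them Gag ORFs, stayed lower in dot4-1 past the threshold. YBL101W-B had no value in set 2 of untagged DOT4.

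The families less like Ty1 did not move as 1 group. Of Ty3, a retrotransposon of another class, YIL082W fell by 0.73 on the log2 scale (SD 0.13) and YIL080W was at -0.28 ± 0.014, while YIL082W-A rose by 0.36 ± 0.029 in dot4-1 (adjusted p = 6.81e-07, 0.000607 and 0.000206 in that order, limma). YIL082W-A fell in untagged DOT4, at -0.39 ± 0.10 (adjusted p = 0.000802, limma). Of Ty4, YJL114W was at -0.33 ± 0.0060 in dot4-1 (adjusted p = 1.15e-06, limma) and YJL113W at 0.18 ± 0.20 (adjusted p = 0.163). Of Ty5, YCL075W was at -0.33 ± 0.17 and YCL074W at -0.09 ± 0.082, with adjusted p-values of 0.0511 and 0.538. None of these 7 ORFs passed the threshold in dot4-5.

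**Figure D4:**
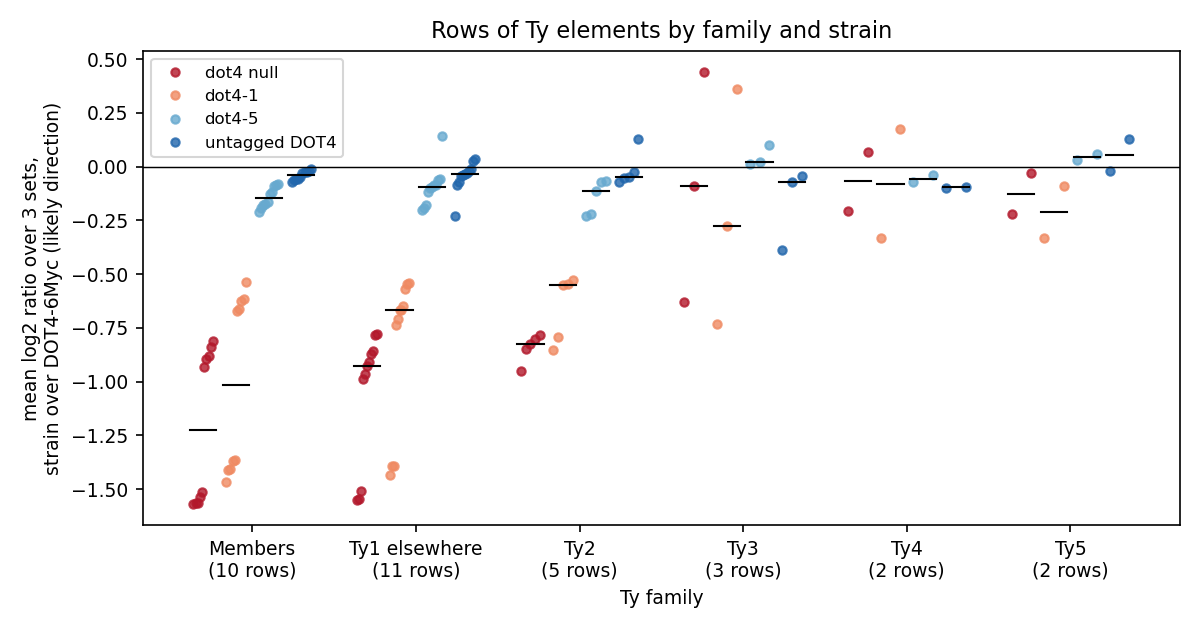
Mean log2 ratio over 3 sets (y axis, strain over DOT4-6Myc in the likely direction) of the 10 ORFs and of the other Ty ORFs in the table, by family and strain; points are ORFs and black lines are medians. In the null strain and dot4-1, ORFs of Ty1 and Ty2 all lie below -0.5, and those of Ty3, Ty4 and Ty5 range from -0.73 to 0.44.

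The genes that border the 5 elements in the R64 order did not share 1 direction. Of 8 such genes, 3 were lower and 3 higher in dot4-1, against 37.5% and 35.9% of all genes. BNA1, an enzyme of NAD synthesis next to YJR026W, was at -0.70, -1.10 and -0.95, a mean of -0.91 ± 0.20 in dot4-1 (SD, n = 3 sets, adjusted p = 2.38e-07, limma). RBH2, next to YJR029W, averaged -0.46 ± 0.18, and YMD8, next to YML039W, averaged -0.19 ± 0.059, both past the threshold. ERB1, a ribosome assembly factor next to YMR050C, was higher at 0.53 ± 0.025, as were VPS71, a subunit of the SWR1 complex next to YML040W, at 0.31 ± 0.052, and NUP116, a nuclear pore protein next to YMR046C, at 0.18 ± 0.055. IOC4 and FAR3 were at -0.09 and 0.01 with adjusted p-values of 0.268 and 0.82. In untagged DOT4, BNA1 rose by 0.41 ± 0.015 and ERB1 fell by 0.39 ± 0.10 (SD), with adjusted p-values of 0.00102 and 0.000365 (limma). None of the 8 passed the threshold in dot4-5.

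Ty1 RNA synthesis draws on transcription factors, on the SAGA and Swi/Snf coactivators and on the MAP kinase pathway of filamentous growth. Of 10 transcription factors, 6 rose and 3 fell in dot4-1, where 35.9% of all genes rose and 37.5% fell. TEC1, which binds Ty1 together with STE12, rose by 0.56 ± 0.044 (adjusted p = 9.14e-07, limma), and STE12 was at 0.05 ± 0.094. RAP1 and MOT3 rose by 0.53 ± 0.17 and 0.40 ± 0.24, and TYE7 fell by 0.27 ± 0.071. Of 14 SAGA and Swi/Snf genes 10 rose and 1 fell, with SPT3 at 0.42 ± 0.096 and SWI1 at 0.41 ± 0.12. Of 11 genes of the MAP kinase pathway 5 rose and 2 fell, with DIG1, an inhibitor of STE12, at 0.37 ± 0.041 and the adaptor STE50 at 0.31 ± 0.085. Without set 2 or set 3 of dot4-1, and with arrays scaled to a common spread, 2 of these 11 rose.

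Host genes of later steps of the Ty1 cycle were counted in dot4-1 in the same way, beside the 35.9% of all genes that rose and the 37.5% that fell there. Of 18 genes for Ty1 RNA and particles 9 rose and 5 fell, with BUD22 at 0.57 ± 0.17, the Lsm protein gene LSM7 at 0.40 ± 0.049, the RNA-binding protein gene SRO9 at -0.61 ± 0.13 and the RNA helicase gene DHH1 at -0.45 ± 0.053. Of 14 genes for integration, chiefly subunits of RNA polymerase III, 11 rose and 1 fell, led by RPC53 at 0.73 ± 0.085 and RPC34 at 0.71 ± 0.088. Of 27 genes known to restrict Ty1, 19 rose and 2 fell, led by the recombination gene RAD54 at 0.60 ± 0.075 and the histone chaperone gene RTT106 at 0.59 ± 0.084. Of 13 genes of the H2B ubiquitin cycle 8 rose and none fell, led by BRE1, the ubiquitin ligase for H2B, at 0.55 ± 0.042 and the H3 methyltransferase gene DOT1 at 0.47 ± 0.13. Without set 2 of dot4-1 no gene of the SAGA and Swi/Snf, integration or restriction lists fell. Without set 1 none for integration or restriction fell, and without set 3 no SAGA or Swi/Snf gene and 1 restriction gene fell. The medians of these lists lay between 0.13 and 0.30, all above the -0.01 of all genes tested, and stayed above 0 under each way of scaling and centring the arrays.

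In dot4-5 none of these host genes passed the threshold. In untagged DOT4, where 25.8% of all genes passed it, 11.2% higher and 14.6% lower, 2 transcription factors rose, 1 gene of the MAP kinase pathway rose and 1 fell, 1 gene for RNA and particles rose and 2 fell, 1 gene for integration rose and 4 fell, and 3 restriction genes rose. None of the SAGA and Swi/Snf or H2B cycle genes passed the threshold there. TYE7 rose by 0.22 ± 0.098 and TEC1 by 0.20 ± 0.095, with adjusted p-values of 0.00216 and 0.0108 (limma). For integration, RPC40 fell by 0.33 ± 0.025, RPC31 by 0.29 ± 0.12, RPO31 by 0.25 ± 0.019 and RPC34 by 0.22 ± 0.14. FUS3, a MAP kinase counted in the list of MAP kinase pathway genes, fell by 0.24 ± 0.074. These counts depended on the centring of arrays: without it no transcription factor rose and 2 fell, no gene for integration rose and 6 fell, and 1 restriction gene rose. After scaling all arrays alike, 6 genes for integration and 4 for RNA and particles fell, and 6 restriction genes rose. Without set 1 or set 3 of untagged DOT4, 2 genes for integration fell and none rose, and without set 2, 1 transcription factor rose. Leaving out any 1 of its sets left 1 gene for RNA and particles that fell.

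Ty1 RNA is known to be less abundant in diploid a/alpha cells than in haploids, and the markers of mating type were read for this reason. Of 7 a-specific genes, AGA2, ASG7 and MFA1 fell in dot4-1, by 0.38 ± 0.37, 0.37 ± 0.17 and 0.19 ± 0.21, and none rose. Of 5 alpha-specific genes, SAG1 rose by 0.46 ± 0.062, and STE3 and MF(ALPHA)1 fell by 0.28 ± 0.042 and 0.18 ± 0.069. Of 10 haploid-specific genes 5 rose and 2 fell, among them GPA1 at 0.53 ± 0.088 and RME1 at -0.65 ± 0.083. These counts stand beside the 35.9% of all genes that rose and the 37.5% that fell in dot4-1, and the falls were not stable. Without set 2 or set 3 of dot4-1, 1 a-specific, 0 alpha-specific and 1 haploid-specific gene fell, and without set 1, 1 alpha-specific gene did. With arrays scaled to a common spread, 1 a-specific gene and 0 alpha-specific genes fell, a separate fit left 1 a-specific gene lower, and with Cy3 arrays alone 3 a-specific genes were higher and 2 lower. In the null strain the 22 markers ran from -0.31 to 0.42, and in dot4-5 from -0.08 to 0.11, with none past the threshold in dot4-5. In untagged DOT4, where the 10 Ty1 ORFs did not pass the threshold, 3 haploid-specific genes fell, FUS3, STE4 and STE5, at -0.24, -0.14 and -0.11, against 14.6% of all genes, and no a-specific or alpha-specific gene passed. Without its set 2 or set 3, 1 haploid-specific gene fell. Ratios give no level, so which mating type genes the strains express is not shown, and the part of these markers in the Ty1 values was not tested.

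Across the 12 set means, the genes outside the Ty lists with the pattern most like the median of the 10 ORFs were PTI1, YDR170W-A, SEC27, MBB1 and SOR2, with Pearson r of 0.994, 0.990, 0.989, 0.988 and 0.987. PTI1, a subunit of the factor that cleaves and polyadenylates mRNA, averaged -1.37 ± 0.062 in the null strain, -1.20 ± 0.10 in dot4-1, -0.15 ± 0.21 in dot4-5 and -0.07 ± 0.14 in untagged DOT4. YDR170W-A, left out of the Ty lists because its family was uncertain, averaged -1.50 ± 0.057, -1.39 ± 0.072, -0.14 ± 0.19 and -0.02 ± 0.18 in the same strains. SEC27, of the COPI vesicle coat, moved less, at -0.37 ± 0.022 in the null strain and -0.34 ± 0.063 in dot4-1. The set means fall into 2 clumps, the null strain with dot4-1 and dot4-5 with untagged DOT4, and r mostly follows that split. Of 6144 genes compared, 444 had an r over 0.9.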

How the data were processed

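The deposited table holds 1 log2 ratio of 2 dye channels per ORF and array, for 6205 ORFs on 24 arrays, with 83 of 148920 cells empty. The log2 scale was settled from the values, since neither the labels nor the file state it. Per the labels, each array compared total RNA of 2 strains. Scanner, background correction and normalization by the authors are not stated. Arrays were centred (median 0) and turned to the likely direction, which departs from the rule planned from the labels, and the 2 dye orientations of a set were averaged. A linear model of the 12 set means was fitted in R 4.3.3 with limma 3.58.1 (lmFit, eBayes; 1 mean per strain, no covariate, 8 residual degrees of freedom). The 6195 genes with at least 2 sets per strain were tested, two-sided, with Benjamini-Hochberg adjustment over all of them and a threshold of 0.05; 10 genes were left out. Precision is limited by the number of arrays.

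The members and the gene lists were chosen with earlier results of these data known. Named are all 10 ORFs, UBP10, the highest and lowest ORF of each other Ty family, the bordering genes, up to 4 genes with the largest change past the threshold in each list, and the 5 genes most like the 10. STE12 was named after its value was seen. STE12 and FUS3 stand in 2 lists. Of the IDs, 5705 matched the RefSeq annotation. Equal set numbers were not taken to pair the strains: their deviations correlated at -0.303 to 0.672, over 0.1 in all 3 sets for the null strain and dot4-1 only. In 6176 genes of simulated dot4-1 data, 99 of 100 changes of 0.5 and 100 of 100 of 1 were recovered, with 7 other genes called. The simulated noise was independent between genes and sets, with 200 changed genes and no dye effect. The recovery therefore may not hold for the Ty1 ORFs, which move together. Alternatives were centring, scaling, single dyes, a set block, separate arrays with a dye term, separate fits, complete genes and leaving out sets. Figures were drawn with matplotlib 3.10.9. The values of some host genes are not reported here.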

Additional observations from a re-analysis of the deposited data

Results flagged for a closer look

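The effect on Ty1 ORFs differed between strains by the test of the difference itself (limma, adjusted over all genes), for each of the 10 ORFs and for both differences that hold dot4-1. The difference of dot4-1 minus dot4-5 was -1.20 for YJR026W, -1.19 for YJR028W, -1.22 for YML040W, -1.30 for YMR046C and -1.19 for YMR051C, the Gag ORFs. It was -0.45 for YJR027W, -0.55 for YJR029W, -0.50 for YML039W, -0.58 for YMR045C and -0.54 for YMR050C, the Gag-Pol ORFs. The difference of dot4-1 minus untagged DOT4 was -1.33 for YJR026W, -1.33 for YJR028W, -1.35 for YML040W, -1.44 for YMR046C and -1.31 for YMR051C. It was -0.51 for YJR027W, -0.60 for YJR029W, -0.56 for YML039W, -0.66 for YMR045C and -0.62 for YMR050C. The 10 ORFs share sequence, so these are not 10 separate results. They were chosen in the null strain, whose values are not independent of those of dot4-1. With arrays scaled to a common spread, YMR046C alone stayed past the threshold for dot4-1 minus dot4-5. For dot4-1 minus untagged DOT4, 2 ORFs lost the call under that scaling.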

How the results depend on the processing

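In dot4-1, all 10 Ty1 ORFs kept their direction and stayed past the threshold under every alternative but one, Cy3 arrays alone, where 5 did and YMR045C was at 0.022 with an adjusted p of 0.876 (limma; 5.58e-12 to 0.937 over the alternatives). The median of the 10, -1.02, came to -0.58 once arrays had a common spread, -1.55 with Cy5 arrays alone and -0.52 with Cy3 arrays alone. In the null strain the median of -1.22 was -0.83, -1.74 and -0.72 in the same order. For dot4-1 minus dot4-5, scaling left 1 ORF past the threshold and a median of -0.27, and for dot4-1 minus untagged DOT4 a median of -0.56. In dot4-5 the median was -0.62 with 8 ORFs past the threshold in Cy5 and 0.28 with 3 in Cy3. In untagged DOT4 it was -0.49 with 10 past the threshold in Cy5 and 0.39 with 5 in Cy3. The single dye orientations keep the dye component, which the average removes. Scaling multiplies all genes of an array by a factor set by that array's spread. With scaled arrays the 11 other Ty1 ORFs had a median of -0.21 in dot4-5, in place of -0.10. The cause of the other changes was not tested.

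With Cy3 arrays alone the signs in dot4-5 were exchanged, at 0.18 for YJR026W, 0.21 for YJR028W, 0.25 for YML040W, 0.018 for YMR046C, 0.21 for YMR051C, 0.31 for YJR027W, 0.48 for YJR029W, 0.39 for YML039W, 0.53 for YMR045C and 0.42 for YMR050C. In untagged DOT4 they were exchanged too, at 0.34 for YJR026W, 0.32 for YJR028W, 0.36 for YML040W, 0.36 for YMR046C, 0.33 for YMR051C, 0.42 for YJR027W, 0.50 for YJR029W, 0.50 for YML039W, 0.57 for YMR045C and 0.50 for YMR050C. With scaled arrays, YJR029W and YMR045C were at 0.0066 and 0.013 in untagged DOT4. For dot4-5 minus untagged DOT4, arrays without centring gave 0.029 for YJR027W, 0.035 for YJR029W, 0.035 for YML039W, 0.019 for YMR045C and 0.014 for YMR050C, and Cy5 arrays alone gave 0.061 for YMR046C.

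With 1 set left out in turn, the number of ORFs past the threshold ranged from 0 to 1 in dot4-5 and in dot4-5 minus untagged DOT4, and did not change in the other 4 comparisons. The 1 ORF, YJR028W, passed without set 2 of dot4-5, at -0.36 (adjusted p = 0.0281) in dot4-5 and -0.33 (adjusted p = 0.0448) in the difference (limma). Values that changed sign spanned, in dot4-5, -0.15 to 0.0093 for YJR027W and -0.13 to 0.010 for YMR045C. In untagged DOT4 they spanned -0.18 to 0.072 for YJR026W, -0.095 to 0.049 for YJR028W, -0.21 to 0.084 for YML040W, -0.091 to 0.064 for YMR046C, -0.13 to 0.049 for YMR051C, -0.13 to 0.037 for YJR027W, -0.073 to 0.043 for YJR029W, -0.12 to 0.029 for YML039W, -0.033 to 0.011 for YMR045C and -0.10 to 0.0075 for YMR050C. In dot4-5 minus untagged DOT4 they spanned -0.30 to 0.017 for YML040W, -0.13 to 0.038 for YJR027W, -0.12 to 0.020 for YJR029W, -0.15 to 0.034 for YML039W and -0.12 to 0.022 for YMR045C.

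With the set number as a replicate block, 10 ORFs stayed past the threshold in dot4-1 and in both differences that hold it, and 0 in the other 3 comparisons, so the block changed no call. Deviations of same-numbered sets correlated over 0.1 in all 3 sets for the null strain and dot4-1, a pair that was not tested, and for no other pair of strains. Other Ty lists kept their direction in dot4-1 except with Cy3 arrays alone, where the 3 Ty2 Gag-Pol ORFs had a median of 0.04 and none passed the threshold. The direction of all signs is not certain, and the missing probe information limits what each ORF measures.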
